A study of Mus musculus with 8 samples.

Results

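Adrenergic and muscarinic signaling genes were examined as 9 genes, chosen by name from the 33249 genes of the deposited table: the receptors Adrb1, Adra1a, Adra1b and Chrm2, the receptor kinase Grk5, the adenylyl cyclases Adcy5, Adcy6 and Adcy7, and the phosphodiesterase Pde3a. Their poly(A) RNA was measured in 8 libraries of mouse myocardium, in 4 labelled groups of 2 libraries (CKO-MI, CKO-Sham, fl/fl-MI, fl/fl-Sham). All mice carried loxP-flanked Piezo1. The CKO mice also carried a tamoxifen-inducible Cre under the cardiomyocyte promoter Myh6 (Myh6-MerCreMer), and the fl/fl mice were littermates lacking this transgene. Tamoxifen was given from 4 weeks of age for 5 days, and at 8 weeks the left anterior descending artery was tied permanently (myocardial infarction, MI) or spared in a sham operation. Myocardium was taken on day 42 after MI. The deletion is meant for cardiomyocytes, whereas the RNA came from all cells of the tissue, so that fewer cells of a type and less RNA per cell cannot be told apart.

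Sympathetic nerves release noradrenaline, which acts on beta1 receptors to raise cyclic AMP through the stimulatory G protein and adenylyl cyclase. Cyclic AMP activates protein kinase A, which increases heart rate and force, and phosphodiesterases break it down. Vagal acetylcholine acts on M2 muscarinic receptors, which couple to inhibitory G proteins and oppose this pathway. Alpha1 receptors signal through Gq and phospholipase C, and G protein-coupled receptor kinases switch off receptors that are in use.

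The deposited counts summed to between 73821747 and 88117573 per library, and mitochondrially encoded genes took 43.1% to 46.4% of them in sham and 19.9% to 24.2% in MI libraries. Piezo1, the deleted gene, had normalized counts (CPM, counts scaled here to library size after TMM normalization) of 72.2 and 82.0 in fl/fl-Sham, 76.7 and 88.3 in CKO-Sham, 53.5 and 64.8 in the pair labelled fl/fl-MI, and 56.3 and 64.6 in that labelled CKO-MI, so the libraries labelled CKO were not lower. Esr1, which lends its ligand-binding part to the transgene's Cre, had 5.52 to 8.36 CPM in all sham libraries and in fl/fl-MI 1, but 707 and 402 CPM in the CKO-MI libraries and 331 CPM in fl/fl-MI 2. The genotype labels are therefore used only as labels. Ranges of MI and sham over all 8 libraries do not rest on them, but the edgeR tests below take their spread within the labelled groups. A fit without the labels gave the same 5 members at an adjusted p under 0.05 (edgeR) for MI against sham. The library labelled fl/fl-MI 2 also stood apart in 6 atrial marker genes, which summed to 20125 CPM there. Without Nppa, which had 2520 to 4419 CPM in the other MI libraries and 106 to 504 CPM in sham, the other 5 genes summed to 8379 CPM in fl/fl-MI 2, 35.1 to 43.6 CPM in the other MI libraries and 49.8 to 110 CPM in sham. The 9 cardiomyocyte markers were all detected, at 34027 to 38882 CPM in sham and 21626 to 46536 CPM in MI. Fibroblast markers (7 genes) summed to 1406 to 1551 CPM in sham and to 2218 to 6406 CPM in MI, and endothelial markers (5 genes) to 1498 to 1611 CPM and 457 to 656 CPM. Their part in the results was not tested.

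Per length of transcript (FPKM, the authors' values), Adcy6 was the most abundant of the 9 genes in sham myocardium, at 30.2 ± 4.91 FPKM (SD, n = 4). Grk5 followed at 4.85 ± 0.62 FPKM, Chrm2 at 4.82 ± 0.61, Adcy5 at 3.89 ± 0.46, Adcy7 at 3.47 ± 0.73 and Pde3a at 2.66 ± 0.21. Adra1b had 1.85 ± 0.16 FPKM and Adrb1 1.05 ± 0.41. Adra1a was lowest at 0.33 ± 0.094 FPKM. Only Adcy6 against Grk5, Pde3a against Adra1b, and Adrb1 against Adra1a had ranges that did not touch between neighbours in this order. In MI myocardium Adcy6 remained first at 32.7 ± 3.37 FPKM and Adra1a last at 0.65 ± 0.22. Chrm2 stood in second place at 19.9 ± 7.92 FPKM, but the ranges of all neighbours overlapped except those of Adrb1 and Adra1a. On log2(FPKM + 1) the median of all tested genes was itself 0.41 higher in MI. These levels therefore give an order within each condition and no change between them.

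MI was compared with sham to see how the receptors and their effectors differed in the infarcted heart. With both genotypes averaged, Chrm2, Adcy5, Grk5, Adrb1 and Pde3a rose, between 1.67-fold and 2.82-fold, and no member was called lower in edgeR. These were 5 of the 8 members that passed the filter on low values (mean FPKM of at least 0.5; Adra1a did not), called at an adjusted p under 0.05 in edgeR's quasi-likelihood test. Among all 14028 tested genes, 22.0% were called higher and 18.3% lower. In 4 of the 8 tested members, Chrm2, Adcy5, Grk5 and Pde3a, all 4 MI libraries lay above all 4 sham libraries in CPM, as they did for 20.9% of tested genes, and in no member did they all lie below, which held for 19.5%. The median log2 fold change was 1.01 over the 8 members and 0.03 over all tested genes. The members were chosen with earlier results of these data known. These comparisons with all genes therefore describe the members and do not test them as a set. The labels do not say whether the libraries came from separate hearts, so the p-values measure the spread between these libraries only.

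**Figure D1:**
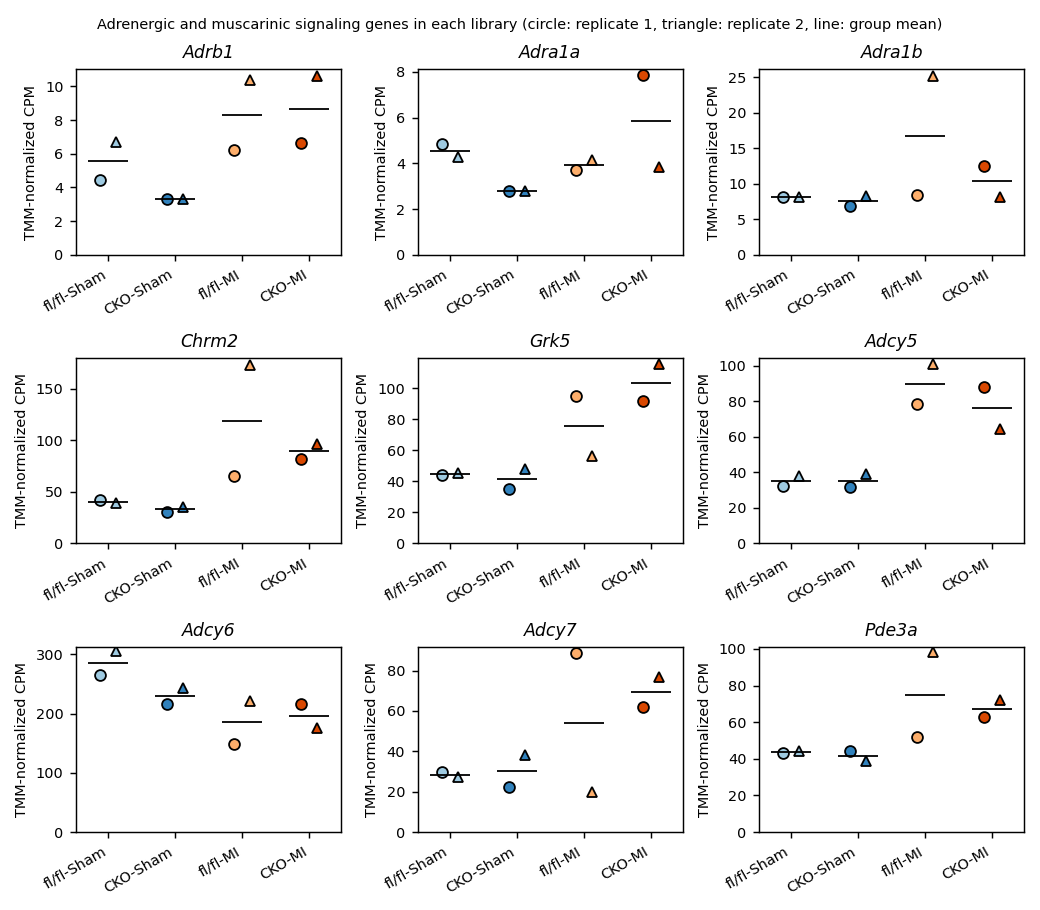
TMM-normalized CPM (vertical axis, linear from 0) of the 9 genes in each of the 8 libraries by labelled group, with the group mean as a line. Chrm2, Grk5, Adcy5 and Pde3a are higher in all 4 MI libraries than in any sham library, while Adcy7 and Adra1b are split by the library fl/fl-MI 2 (triangle).

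Chrm2, the M2 muscarinic receptor (ENSMUSG00000045613, chromosome 6 from 36388084 to 36528414, plus strand), had 41.8 and 39.1 CPM in fl/fl-Sham and 30.9 and 35.2 CPM in CKO-Sham. It had 65.3 and 173 CPM in the fl/fl-MI libraries and 81.5 and 96.8 CPM in CKO-MI. Every MI library was higher than every sham library, and fl/fl-MI 2 was the highest. The log2 fold change was 1.49 (standard error 0.29), with an adjusted p of 0.00702 in edgeR. Without fl/fl-MI 2 it was 1.06 (standard error 0.10, adjusted p = 0.000258 in edgeR). Within the genotypes it was 1.56 for fl/fl (adjusted p = 0.0404 in edgeR; 0.69 without fl/fl-MI 2 and 2.07 without fl/fl-MI 1) and 1.43 for CKO (adjusted p = 0.0412 in edgeR). Both calls were lost when any library other than fl/fl-MI 1 and fl/fl-MI 2 was left out, with adjusted p between 0.0684 and 0.209 in edgeR. Chrm2 was the only muscarinic receptor gene of 5 to pass the filter on low values.

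Adrb1 encodes the beta1 receptor, the main beta receptor of cardiomyocytes (ENSMUSG00000035283, chromosome 19 from 56722199 to 56733113, plus strand). It had 4.42 and 6.71 CPM in fl/fl-Sham, 3.34 and 3.29 CPM in CKO-Sham, 6.23 and 10.4 CPM in the fl/fl-MI libraries and 6.62 and 10.6 CPM in CKO-MI. The MI values were the higher ones, although fl/fl-MI 1 and CKO-MI 1 lay just under fl/fl-Sham 2. The log2 fold change was 0.98 (standard error 0.26), with an adjusted p of 0.0225 in edgeR. Leaving out fl/fl-Sham 1, CKO-Sham 1, CKO-Sham 2 or CKO-MI 2 raised the adjusted p to between 0.0728 and 0.0815, with the log2 fold change between 0.77 and 0.99. Within fl/fl the log2 fold change was 0.58 and did not pass (adjusted p = 0.292 in edgeR). It was 0.16 there without fl/fl-MI 2 and 0.87 without fl/fl-MI 1. Within CKO it was 1.38 (adjusted p = 0.0356 in edgeR). These values rest on 200 to 1033 counts per library, which may stand for fewer read pairs, since low counts piled up at multiples of 4.

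The ratio of Chrm2 to Adrb1, taken within each library from FPKM and so free of library scaling, ranged from 3.26 to 5.99 in sham and from 5.08 to 9.29 in MI, a log2 difference of 0.46 with overlapping groups (exact permutation p = 0.20).

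Adra1b (ENSMUSG00000050541, chromosome 11 from 43774606 to 43901210, minus strand) and Adra1a (ENSMUSG00000045875, chromosome 14 from 66635251 to 66771168, plus strand) encode alpha1 receptors. Adra1b had 8.13 and 8.21 CPM in fl/fl-Sham and 6.88 and 8.29 CPM in CKO-Sham, against 8.41 and 25.2 CPM in the fl/fl-MI libraries and 12.6 and 8.22 CPM in CKO-MI. CKO-MI 2 lay within the sham range, fl/fl-MI 1 just above it, and fl/fl-MI 2 far above all others. The log2 fold change of 0.75 (standard error 0.34) did not pass the test (adjusted p = 0.118 in edgeR). It was 0.25 without fl/fl-MI 2 (adjusted p = 0.297 in edgeR) and 1.02 without fl/fl-MI 1, which passed (adjusted p = 0.00326 in edgeR), so 1 library decided the size.

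Adra1a had 4.83 and 4.26 CPM in fl/fl-Sham, 2.78 and 2.81 CPM in CKO-Sham, 3.71 and 4.13 CPM in the fl/fl-MI libraries and 7.86 and 3.84 CPM in CKO-MI. Only CKO-MI 1 lay above all sham libraries. In a fit without the filter it had a log2 fold change of 0.49 (standard error 0.25, adjusted p = 0.247 in edgeR). Adra1a was 0.13 to 0.23 times as abundant as Adra1b in sham and 0.063 to 0.24 times in MI, with no difference past the test (exact permutation p = 0.743).

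Grk5, a kinase that phosphorylates activated receptors at the membrane (ENSMUSG00000003228, chromosome 19 from 60889749 to 61095968, plus strand), had 44.4 and 45.2 CPM in fl/fl-Sham and 35.0 and 47.8 CPM in CKO-Sham. After MI it had 95.1 and 56.6 CPM in the fl/fl-MI libraries and 91.8 and 115 CPM in CKO-MI. All MI libraries were higher than all sham libraries, and fl/fl-MI 2 was the lowest of them, the reverse of its place for Chrm2. Its log2 value for MI over sham was 1.04 (standard error 0.20, adjusted p = 0.00661 in edgeR). It was 1.20 without fl/fl-MI 2 (adjusted p = 0.000495 in edgeR). Relative to Grk2, the other main receptor kinase of the heart, Grk5 stood at 0.35 to 0.47 in sham and 0.69 to 1.20 in MI, with no overlap. The log2 difference in this ratio was 1.15 (exact two-sided permutation p = 0.0286, the smallest that 4 against 4 libraries can give, and 0.0667 adjusted over 7 ratios).

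The promoters of the members that rose are shown because these genes shared a direction against sham. RefSeq sequences for GRCm38.p6 matched 6 of the 9 members, and Adra1a, Adcy6 and Pde3a had no entry. Each line gives the 250 bases before the RefSeq start, 5′ to 3′ on the gene's strand, with the cyclic AMP response element half-site (TGACG or its reverse, CGTCA) and the GC box (GGGCGG or its reverse, CCGCCC) in capitals. They lie at chr19:56721867-56722116 (Adrb1), chr6:36387834-36388083 (Chrm2), chr19:60889499-60889748 (Grk5) and chr16:35154614-35154863 (Adcy5), all on the plus strand.
Adrb1: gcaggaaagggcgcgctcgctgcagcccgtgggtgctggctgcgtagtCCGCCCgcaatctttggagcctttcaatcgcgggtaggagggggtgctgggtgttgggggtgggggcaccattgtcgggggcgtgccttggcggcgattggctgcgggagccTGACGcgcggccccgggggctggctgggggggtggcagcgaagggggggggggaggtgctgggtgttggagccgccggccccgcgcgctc
Chrm2: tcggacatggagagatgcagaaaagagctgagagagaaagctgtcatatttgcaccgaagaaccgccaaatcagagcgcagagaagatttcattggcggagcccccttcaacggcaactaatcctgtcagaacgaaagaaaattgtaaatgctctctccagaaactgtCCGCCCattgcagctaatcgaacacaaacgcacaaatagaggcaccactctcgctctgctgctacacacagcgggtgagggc
Grk5: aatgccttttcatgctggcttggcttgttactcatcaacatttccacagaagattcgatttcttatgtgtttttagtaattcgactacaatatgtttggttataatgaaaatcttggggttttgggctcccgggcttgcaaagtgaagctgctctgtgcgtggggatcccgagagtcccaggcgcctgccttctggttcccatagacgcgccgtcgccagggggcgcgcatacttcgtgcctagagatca
Adcy5: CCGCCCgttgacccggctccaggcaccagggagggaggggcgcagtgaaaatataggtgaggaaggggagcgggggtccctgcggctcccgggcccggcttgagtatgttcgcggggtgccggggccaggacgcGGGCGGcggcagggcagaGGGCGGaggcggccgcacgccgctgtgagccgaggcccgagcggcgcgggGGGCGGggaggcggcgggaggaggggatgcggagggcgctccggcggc
The full response element TGACGTCA, which contains the half-site on both strands, was in none of these 4 windows and in 1.55% of all 32851 promoter windows of this length. Of these 4 windows, that of Adrb1 alone held the half-site, with 1 match, and 17.8% of all windows held it. The GC box had 4 matches before Adcy5, 1 before Adrb1, 1 before Chrm2 and 0 before Grk5, and 32.7% of all windows held it. Not shown are the windows of Adcy7 and Adra1b, which were not called. Among them, an Adcy7 window held 1 half-site, and another Adcy7 window and an Adra1b window held 1 GC box each. G and C made up 78.0% of the Adcy5 window, 74.0% of Adrb1, 50.0% of Chrm2 and 49.6% of Grk5.

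Adcy5 and Adcy6 are the main adenylyl cyclases of cardiomyocytes and make cyclic AMP. Adcy5 (ENSMUSG00000022840, chromosome 16 from 35154877 to 35305738, plus strand) had 32.3 and 37.8 CPM in fl/fl-Sham, 31.7 and 38.9 CPM in CKO-Sham, 78.4 and 101 CPM in the fl/fl-MI libraries and 88.0 and 64.6 CPM in CKO-MI. The groups did not overlap. Adcy5 had the smallest p of the members, with a log2 fold change of 1.23 (standard error 0.15, adjusted p = 0.00165 in edgeR). It passed within fl/fl (1.36, adjusted p = 0.0104 in edgeR) and within CKO (1.11, adjusted p = 0.0148 in edgeR). The first call was lost without fl/fl-Sham 1 or fl/fl-Sham 2 (adjusted p = 0.0966 and 0.0832 in edgeR), and the second without CKO-Sham 1, CKO-Sham 2 or CKO-MI 1 (adjusted p = 0.121, 0.0618 and 0.0747 in edgeR).

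Adcy6 (ENSMUSG00000022994, chromosome 15 from 98589973 to 98610076, minus strand) moved in the opposite direction on this scale, from 265 and 305 CPM in fl/fl-Sham and 217 and 244 CPM in CKO-Sham to 148 and 222 CPM in the fl/fl-MI libraries and 216 and 176 CPM in CKO-MI. Of the MI libraries, 3 were below all sham libraries, CKO-MI 1 only just. The log2 fold change of −0.43 (standard error 0.16) did not pass (adjusted p = 0.071 in edgeR). It passed without fl/fl-MI 2 (−0.59, adjusted p = 0.00656 in edgeR) and in DESeq2, whereas on the FPKM scale it was 0.12 (adjusted p = 0.447 in limma), in a scaling where the median of all genes was itself 0.41 higher in MI. Relative to that median Adcy6 was −0.29.

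The ratio of Adcy5 to Adcy6 does not depend on the scaling. It was 0.12 and 0.12 in fl/fl-Sham, 0.14 and 0.15 in CKO-Sham, 0.50 and 0.43 in fl/fl-MI, and 0.38 and 0.35 in CKO-MI. Adcy6 was the more abundant in every library, by a smaller margin in every MI library. The log2 difference of 1.67 was the largest of the ratios given here (exact permutation p = 0.0286, adjusted 0.0667).

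**Figure D2:**
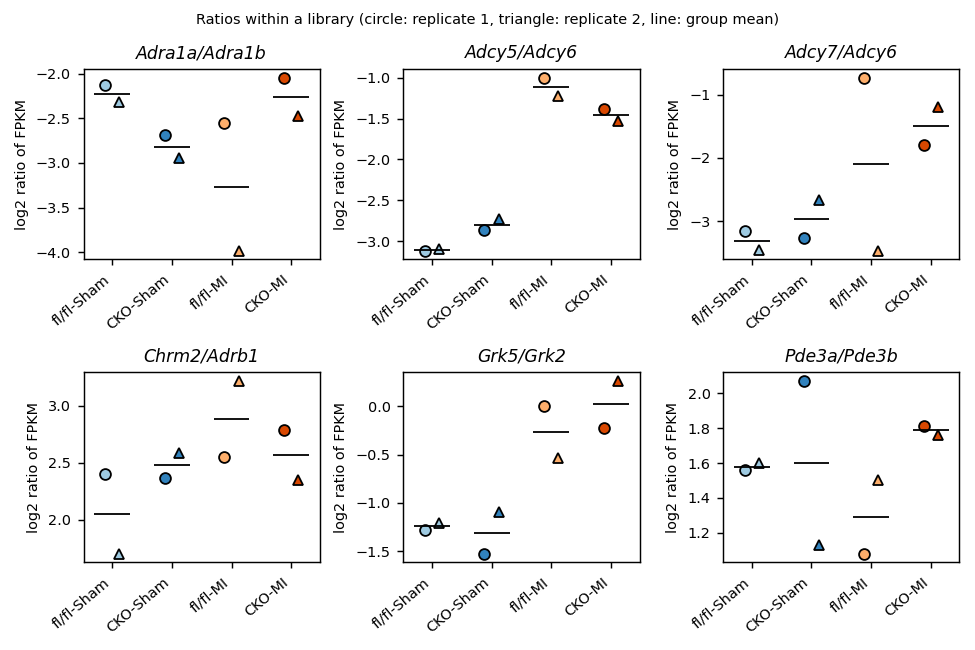
log2 ratio of FPKM within each library for 6 gene pairs (vertical axis), by labelled group with the group mean as a line. Adcy5/Adcy6 and Grk5/Grk2 are higher in all 4 MI libraries than in all 4 sham libraries, and the other pairs overlap.

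Adcy7, a cyclase known from blood and immune cells among others (ENSMUSG00000031659, chromosome 8 from 88272403 to 88329962, plus strand), had 29.5 and 27.5 CPM in fl/fl-Sham and 22.5 and 38.3 CPM in CKO-Sham. It had 88.5 and 19.9 CPM in the fl/fl-MI libraries and 61.9 and 76.8 CPM in CKO-MI. Of the MI libraries, 3 were above all sham libraries and fl/fl-MI 2 was below all of them. MI over sham came to a log2 fold change of 1.06 (standard error 0.43, adjusted p = 0.0893 in edgeR). Without fl/fl-MI 2 it was 1.41 and passed (standard error 0.19, adjusted p = 0.000823 in edgeR), and without fl/fl-MI 1 it was 0.32 (adjusted p = 0.194 in edgeR). The order of the MI libraries for Adcy7 was also that of the fibroblast markers, which summed to 6406 CPM in fl/fl-MI 1, 5430 in CKO-MI 2, 3282 in CKO-MI 1 and 2218 in fl/fl-MI 2. The macrophage markers (7 genes) summed to 1130, 736, 439 and 799 CPM in the same libraries and 454 to 505 CPM in sham. The part of either cell type in Adcy7 was not tested.

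**Figure D3:**
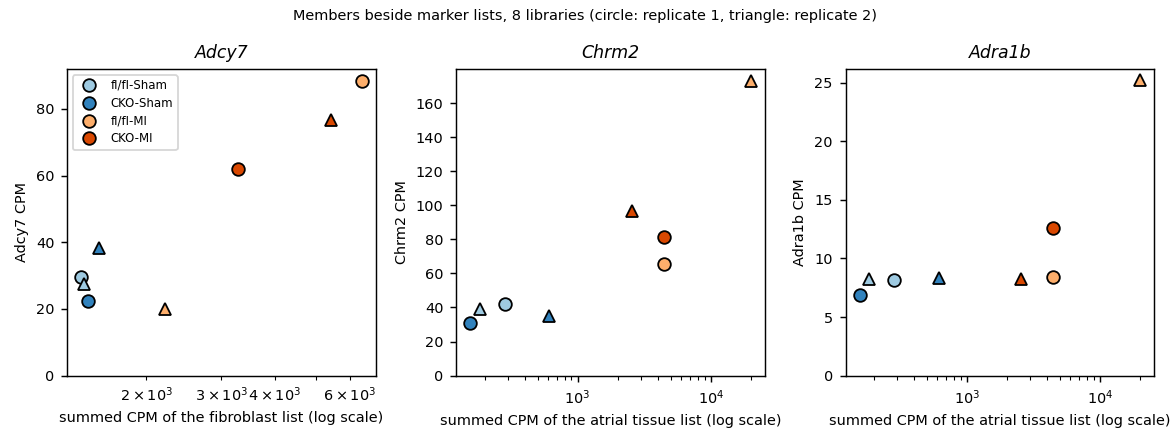
CPM of Adcy7, Chrm2 and Adra1b (vertical axes, linear) against the summed CPM of the fibroblast or atrial marker list (horizontal axes, log scale) in the 8 libraries. Adcy7 follows the fibroblast list among the MI libraries, and fl/fl-MI 2 (triangle) is highest in the atrial list at 20125 CPM and in Chrm2 and Adra1b.

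Pde3a, a phosphodiesterase that degrades cyclic AMP and is inhibited by cyclic GMP (ENSMUSG00000041741, chromosome 6 from 141249269 to 141507448, plus strand), had 43.2 and 44.0 CPM in fl/fl-Sham and 44.5 and 38.8 CPM in CKO-Sham. It had 51.7 and 98.3 CPM in the fl/fl-MI libraries and 62.8 and 71.9 CPM in CKO-MI, with no overlap between MI and sham. MI over sham came to a log2 fold change of 0.74 (standard error 0.20, adjusted p = 0.0245 in edgeR). Without fl/fl-MI 2 it was 0.47 (adjusted p = 0.00613 in edgeR). Leaving out any of the other libraries except fl/fl-MI 1 took the adjusted p to between 0.0576 and 0.0865, with the log2 fold change between 0.67 and 0.79. Pde3a was 2.19 to 4.20 times as abundant as Pde3b in sham and 2.11 to 3.52 times in MI (exact permutation p = 0.857), and Pde3b was also called higher, with a log2 fold change of 0.74.

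Within the genotype labels, Chrm2 and Adcy5 rose in fl/fl-MI against fl/fl-Sham (2 of 8 members, beside 10.1% of all tested genes called higher and 8.45% lower). Adrb1, Chrm2, Grk5 and Adcy5 rose in CKO-MI against CKO-Sham (4 of 8, beside 12.8% higher and 11.9% lower). Of the CKO calls, Grk5 was lost without any 1 of the CKO libraries (adjusted p = 0.0514 to 0.133 in edgeR), and Adrb1 was lost without any 1 library but fl/fl-MI 1 and fl/fl-MI 2 (0.0577 to 0.173). The 2 comparisons use different libraries, and the difference between them was tested as the interaction of genotype and MI. Of the 8 members that passed the filter, 0 were called in the interaction, beside 0% of all tested genes. Among these 8, 0 had an unadjusted p under 0.05 in edgeR and 0 were called by DESeq2. Their estimates ran from −0.59 for Adra1b to 0.80 for Adrb1 (log2, standard errors 0.67 and 0.51). Adra1a, in the fit without the filter, had a larger interaction of 1.32 (standard error 0.51). Its unadjusted p was 0.0229 in edgeR, but its adjusted p was 0.721.

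CKO-MI was compared with fl/fl-MI as labelled, although Piezo1 did not separate these libraries. No member was called (0 of 8, beside 0% of all tested genes; 0 members at an unadjusted p under 0.05 and 0 by DESeq2), with log2 fold changes from −0.69 (standard error 0.48) for Adra1b to 0.45 (standard error 0.27) for Grk5. Between these limits lay Chrm2 at −0.42, Adcy5 at −0.23, Pde3a at −0.16, Adrb1 at 0.05, Adcy6 at 0.08 and Adcy7 at 0.36. Their standard errors ran from 0.22 for Adcy5 to 0.60 for Adcy7. Without fl/fl-MI 2 the signs of Adra1b, Chrm2, Adcy7 and Pde3a reversed, and without fl/fl-MI 1 those of Adrb1 and Adcy6. Grk5 stayed positive whichever library was left out (0.125 to 0.888), and Adcy5 ran from −0.461 to 0.009. The direction of most members, but not of all, thus depended on the pair of fl/fl-MI libraries. Which members were called also changed with this pair. In sham hearts CKO against fl/fl gave 0 of 8 members (beside 0.00713% of all tested genes; 0 members at an unadjusted p under 0.05 and 0 by DESeq2), with log2 fold changes from −0.75 (standard error 0.37) for Adrb1 to 0.09 (standard error 0.60) for Adcy7.

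**Figure D4:**
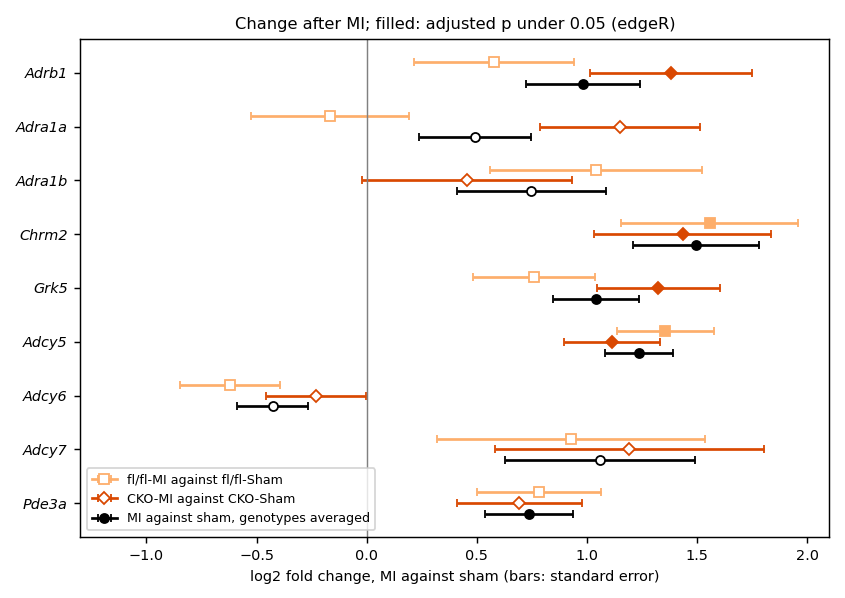
log2 fold change of MI against sham (horizontal axis, bars are standard errors) for fl/fl, for CKO and for both averaged. Filled symbols passed an adjusted p under 0.05 in edgeR, which with both averaged are Adrb1, Chrm2, Grk5, Adcy5 and Pde3a, and the values of Adra1a come from the fit without the filter on low values.

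Because the summed cardiomyocyte markers varied between MI libraries, each member was also set against the mean log2 CPM of 9 cardiomyocyte genes, from Myh6 to Atp2a2. The list itself was split: Actc1, Ryr2 and Atp2a2 were called higher (log2 fold changes 0.89 to 1.29) and Myl3, Myl2 and Tnni3 lower (down to −1.22), so its mean is no fixed measure of the share of cardiomyocytes. Relative to this list, Chrm2 was 1.60 higher in MI than in sham on the log2 scale, Adcy5 1.41, Grk5 1.21, Pde3a 0.88 and Adra1b 0.81. In these 5 genes every MI library exceeded every sham library (exact permutation p = 0.0286 each, unadjusted over 9 tests, the smallest possible). The same count was not made over all tested genes, so it does not set the members apart. The mean of the list was 11.4 to 11.6 in sham, and 10.9, 11.5, 11.7 and 11.2 in fl/fl-MI 1, fl/fl-MI 2, CKO-MI 1 and CKO-MI 2. A lower mean raises the relative value of every gene in that library. Adrb1 was 1.14 higher and Adra1a 0.57 higher, both with p = 0.0571 in the exact permutation test, and Adcy6 was at −0.26 with the same exact p. Adcy7 was 1.08 higher with p = 0.171 in the exact permutation test.

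In the transcript table, 1 coding transcript held nearly all of the summed FPKM of Chrm2, Grk5, Adcy5 and Pde3a, between 99.3% and 100% in every library. For Adrb1 the single-exon coding transcript of 2952 bases held 85.1% to 100% in sham and 94.3% to 100% in MI. The shares of Adcy6, Adcy7 and Adra1a varied widely between replicates: the leading Adcy6 transcript took 8.74% to 65.1% in sham and 9.73% to 52.5% in MI, and the leading Adcy7 transcript 24.5% to 100% in sham and 0% to 36.4% in MI. No difference in a share between MI and sham passed the test (0 of 9 adjusted, 0 of 9 at an unadjusted p under 0.05 in exact permutation tests). Exons of Adcy6, Pde3a and Chrm2 overlap those of the opposite-strand genes Gm29331, Gm28523 and 9330158H04Rik by up to 495, 741 and 133 bases, and whether the counting used strand is not given in the sources used here, so reads of these partners cannot be told apart.

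The tested gene most like each member over the 8 libraries, by Pearson r of log2(CPM + 1), was Gorasp2 for Chrm2 (r = 0.997), Ern1 for Grk5 (r = 0.995), Palld for Adcy5 (r = 0.995), Arl4c for Adcy7 (r = 0.990), Anxa6 for Pde3a (r = 0.990), Dazap2 for Adra1b (r = 0.991), Dis3l for Adcy6 (r = 0.989), Lrrc57 for Adra1a (r = 0.983) and Rab40b for Adrb1 (r = 0.967). In second place were Ndst1, Ncs1, Lrig1, Anxa4, Ncoa1, Aak1, Maip1, Msra and Tex261, in the same order. Among the members themselves, Chrm2 was most like Pde3a (r = 0.973) and Adcy5 (r = 0.904). These are descriptions over 8 points that share the split between sham and MI.

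The genes around the members were taken from 14 lists of the pathway. Of 168 genes on them that are not members, 126 passed the filter, of which 35 (27.8%) were called higher and 24 (19.0%) lower after MI, beside 22.0% and 18.3% of all tested genes, with a median log2 fold change of 0.16. Pooled over the lists, these shares were near those of all genes. Single lists departed from them, but no list was tested as a set, so the values below describe single genes. Each count of a list below stands beside 22.0% higher and 18.3% lower among all tested genes. Of the 40 genes of these lists that are no members and were chosen for naming, 29 were called whichever library was left out and 11 lost the call without at least 1 library, and none changed sign. The 11 were Gnai3, Gnb2, Gnb3, Rgs1, Pde1c, Pde8b, Popdc2, Bves, Rrad, Tnni3 and Dgkd, so their values below are less firm. With a library left out, the log2 fold change ran from 0.38 to 0.71 for Popdc2 and from 0.51 to 0.79 for Bves. It ran from 0.55 to 1.07 for Pde1c and from 0.77 to 1.54 for Rrad. Protein kinase A, the target of cyclic AMP, had 5 of 8 tested subunits and inhibitors called higher and 0 lower. Its regulatory subunit Prkar1a went from 193 to 212 CPM in sham to 476 to 574 CPM in MI (log2 fold change 1.34, standard error 0.11, adjusted p = 0.00062 in edgeR), Prkar2a rose by 1.13 and the catalytic Prkaca by 1.02. Of the anchoring proteins that hold the kinase in place, 5 of 10 were higher and 2 lower. Akap6, which anchors it at the nuclear envelope of cardiomyocytes, went from 30.8 to 39.2 CPM in sham to 110 to 185 CPM in MI (log2 fold change 2.02), while Akap8 fell by 1.21 and Akap8l by 0.91.

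Of the 7 adenylyl cyclases tested, Adcy5 and Adcy9 (log2 fold change 1.24) were higher and Adcy4 lower (−1.04). Adcy4 is known from endothelium, whose 5 markers were all called lower, and their part was not tested. The 16 phosphodiesterases split into 6 higher, Pde7b (1.25), Pde1c (0.86) and Pde3a among them, and 3 lower: Pde4c (−2.95), Pde2a (−1.62) and Pde8b (−0.89). The exchange factor Rapgef3, which binds cyclic AMP and is known as Epac1, went from 83.6 to 104 CPM in sham to 21.0 to 34.3 CPM in MI (log2 fold change −1.78, adjusted p = 0.000246 in edgeR), while the cyclic AMP-binding membrane proteins Popdc3 (1.14), Bves (0.69) and Popdc2 (0.58) were higher.

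G protein subunits were called in both directions, 4 higher and 5 lower of 19 (21.1% and 26.3%, beside 22.0% and 18.3% of all tested genes). Gnao1, an inhibitory alpha subunit, rose by 1.56 and Gna13 by 0.68, whereas Gng11 fell by 1.19. Gnao1 had 120 CPM in fl/fl-MI 2 and 55.2 to 60.9 CPM in the other MI libraries. Regulators of G protein signaling shorten the active state of alpha subunits. Rgs6, which acts on the M2 receptor pathway, rose with a log2 fold change of 2.50, or 1.86 to 2.81 with a library left out. It had 3.26 to 7.25 CPM in sham, 83.7 CPM in fl/fl-MI 2 and 11.3 to 21.8 CPM in the other MI libraries. Rgs5, a pericyte gene, fell by 1.69 and Rgs3 by 1.04. Rgs1 had 1.58 to 4.31 CPM in sham and 22.0, 11.0 and 7.60 CPM in 3 MI libraries, but 1.09 CPM in CKO-MI 2, below all sham libraries. Its log2 fold change of 1.71 passed narrowly (adjusted p = 0.0476 in edgeR) and did not pass without any 1 library but fl/fl-MI 2 and CKO-MI 2 (adjusted p up to 0.148 in edgeR, with log2 fold changes down to 0.69). Beside Grk5, Arrdc3 rose by 1.73 among 8 kinases and arrestins, and 0 were lower. The muscarinic potassium channel, which M2 receptors open in atrium, had 2 tested subunits, of which 0 were called by edgeR (adjusted p = 0.614 for Kcnj3 and 0.121 for Kcnj5) and 0 had an unadjusted p under 0.05. Kcnj3 had 341 CPM in fl/fl-MI 2 against 8.00 to 14.9 CPM in the other MI libraries and 23.7 to 45.7 CPM in sham.

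The alpha1 receptors' Gq arm had 8 genes lower and 3 higher of 16 (50.0% and 18.8%, beside 18.3% and 22.0% of all tested genes). Its median log2 fold change was −0.41. Plcb1, a phospholipase C, went from 11.9 to 20.8 CPM in sham to 5.15 to 7.75 CPM in MI (log2 fold change −1.23, standard error 0.13, adjusted p = 0.00102 in edgeR), and the diacylglycerol kinases Dgkz and Dgka fell by 1.07 and 0.99. Plce1 (0.98), Prkca (1.17) and Dgkd (0.39) were higher. Among 16 targets of protein kinase A and their phosphatases, 5 were higher and 1 lower. The phosphatase subunits Ppp1cb (0.82) and Ppp2ca (0.49) and the channel regulator Rrad (1.27) were among those higher, and Tnni3, cardiac troponin I, was the 1 lower (−1.19). Rrad had 308 CPM in fl/fl-MI 2 and 102 to 187 CPM in the other MI libraries. Neuron markers (6 genes) summed to 8.89 to 14.8 CPM in sham and 17.8 to 42.9 CPM in MI, but only 2 of them, Uchl1 and Dbh, reached 1 CPM. Uchl1 had 6.59 to 12.6 CPM in sham and 8.51 to 41.2 CPM in MI. Dbh had 1.16 to 1.89 CPM in sham, 8.92 CPM in fl/fl-MI 2 and 0.58 to 0.96 CPM in the other MI libraries. Th and Chat, which mark sympathetic or vagal neurons, were at 0 in at least 1 library. Whether nerve tissue differed was not tested.

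**Figure D5:**
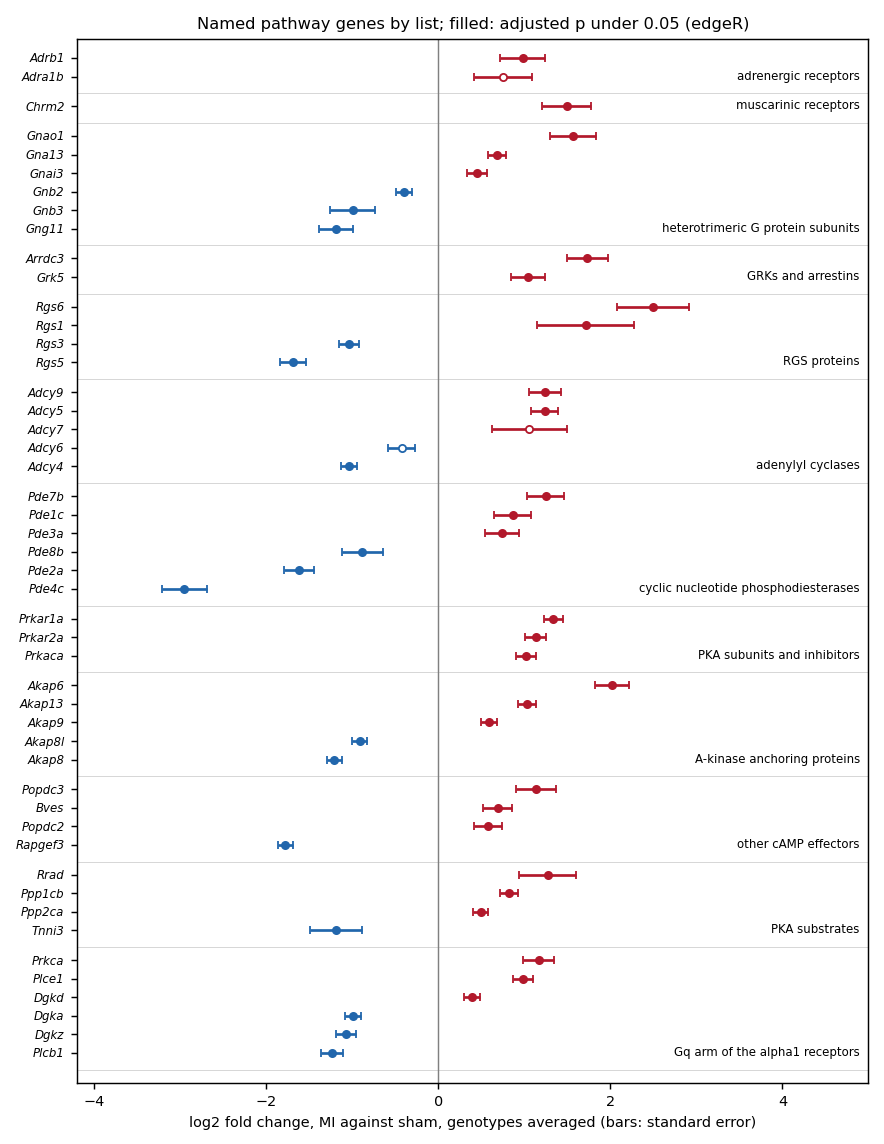
log2 fold change of MI against sham with both genotypes averaged (horizontal axis, bars are standard errors) for the members that passed the filter and named genes of the lists, by list. Every gene drawn passed an adjusted p under 0.05 in edgeR except Adra1b, Adcy7 and Adcy6 (open circles), and the 3 protein kinase A genes shown are all higher, by 1.02 to 1.34.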

How the data were processed

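Samples were grouped by their labels. Per the labels, total RNA with a high integrity number was used, and the authors' processing notes name cutadapt 1.9 and FastQC. The aligner, counter, genome build and annotation are not given in the sources used here. Gene coordinates of all 9 members equal those of GENCODE M21 on GRCm38. The authors deposited, per gene and transcript, a whole-number count without normalization, and FPKM, scaled to length and library size.

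The 14028 of 33249 genes whose mean FPKM reached 0.5 were tested on the deposited counts with edgeR 4.0.16 (quasi-likelihood, TMM, a mean per group, all 8 libraries) in R 4.3.3, with Benjamini-Hochberg adjustment over all of them. CPM uses the same library scaling. Low counts piled up at multiples of 4; they were read as about 4 counts per read pair, which the sources used here do not state. Each standard error is the log2 fold change divided by the square root of its F. limma 3.58.1 on log2(FPKM + 1), with a pseudocount of 1, and DESeq2 1.42.0 were among the alternatives, as were each library left out, RLE scaling, other filters and pseudocounts, no mitochondrially encoded genes, counts divided by 4, and a replicate block. A fit of 4 MI against 4 sham libraries without genotype labels and a crossed replicate block were chosen after seeing the data. Ratios, values relative to cardiomyocyte genes and transcript shares were compared by exact permutation of 4 against 4 libraries. The scripts were tested on simulated data.

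Members, lists and markers were chosen with earlier results of these data known. Genes named from a list were the members plus up to 3 called genes with the smallest p in each direction, and the genes of the ratios. Kcnj3, Kcnj5, Uchl1 and Dbh were named after their values were seen. Some genes of the lists and 1 of the 7 ratios are not reported here. Replicates of no group were identical. Summaries were made with Python 3.11.15 (pandas 2.3.3, SciPy 1.17.1).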

Additional observations from a re-analysis of the deposited data

How the results depend on the processing

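Of 134 recounts of calls under other settings, 105 stayed within 1.5 times the count given, 22 were lower and 7 higher. Of 783 recomputed values, 669 kept their direction and side of the threshold, 94 kept only the direction, and 20 reversed. With both genotypes averaged, 5 members were called, 7 by DESeq2 and by limma on log2(FPKM + 1), 6 without a filter, 4 of the 5 members with a mean of 5 FPKM or more, 5 without the genotype labels, and 3 to 7 with a library left out (3 without fl/fl-Sham 1, CKO-Sham 1, CKO-Sham 2 or CKO-MI 2, and 7 without fl/fl-MI 2). For fl/fl-MI against fl/fl-Sham the 2 calls became 4 in DESeq2, 5 in limma on either FPKM scale, 0 with only the 4 libraries compared, and 0 to 5 with a library left out. For CKO-MI against CKO-Sham the 4 calls became 0 to 6 with a library left out, for CKO-MI against fl/fl-MI 0 became 0 to 4, and for the interaction 0 became 0 to 1. Against the cardiomyocyte list, the 5 genes at an exact p of 0.0286 became 2 to 6 with a library left out. In the edgeR fits with a library left out, the calls over all tested genes also rose or fell. The ranges of called members therefore do not set the members apart. The cause was not tested. Of all 14028 tested genes, MI against sham called 3091 higher and 2572 lower in edgeR, and 3441 and 3045 in DESeq2. In limma on log2(FPKM + 1) 7027 were higher and 837 lower. For fl/fl alone limma called 4801 higher and 454 lower, against 1410 and 1186 in edgeR. DESeq2 called 2198 higher and 1840 lower there. With only the 4 libraries compared, edgeR called 68 higher and 131 lower of all tested genes. The 7 members by DESeq2 include Adcy6 as lower (log2 fold change −0.44, adjusted p = 0.0364 in DESeq2), and without fl/fl-MI 2 it was −0.59.

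The replicate numbers did not pair the libraries (correlations of deviations between groups from −0.21 to 0.055). With the replicate block, 1 member, Adcy5, was called in the fl/fl comparison of MI with sham, where Chrm2 was not (adjusted p = 0.0569 in edgeR), and the count of members was the same as without it in the other comparisons. Over all genes the block moved the calls of MI against sham from 5663 to 5085. With the numbers of the CKO-MI libraries crossed, 0 members and 0 of all genes were called by edgeR between CKO-MI and fl/fl-MI.

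On the FPKM scales Adcy6 turned from −0.43 to 0.118 and 0.122 for MI against sham and from −0.23 to 0.317 and 0.327 in CKO; the median of all genes was 0.41 and 0.56 on these scales. Adcy6 relative to the median of the cardiomyocyte list was 0.0468. With a library left out, Adcy7 in fl/fl ran from −0.548 to 1.63. For CKO-MI against fl/fl-MI the ranges were −0.295 to 0.470 for Adrb1, −1.26 to 0.305 for Adra1b, −0.939 to 0.450 for Chrm2, −0.461 to 0.009 for Adcy5, −0.160 to 0.403 for Adcy6, −0.351 to 1.82 for Adcy7 and −0.531 to 0.381 for Pde3a. In sham, Adcy7 ran from −0.343 to 0.425, and the interaction of Adra1b from −1.15 to 0.414. The log2 ratio difference ran from −0.482 to 0.163 for Adra1a/Adra1b and from −0.205 to 0.108 for Pde3a/Pde3b. Leaving out a library leaves its group with 1, assumed to vary like the others. Depth limits Adra1a most, at 171 to 665 counts per library.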
